A study of Mus musculus with 3186 samples.

Results

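The ATP-sensitive potassium channel genes Kcnj8, Abcc9, Kcnj11 and Abcc8 were chosen by name, all 4 were found among the 19937 genes of the count tables, and they were described in 3186 single cells of the adult mouse brain. The cells came from C57BL/6 mice aged 12 to 15 weeks and were collected 1 per well in 384-well plates, by the fluorescence of their reporter, for Smart-seq2, a method that reads full-length RNA of single cells. There were 1484 cells of Pdgfrb-eGFP/NG2-dsRed mice (the mural line, 4 plates named Mural3 to Mural6), 257 cells of Pdgfra-H2BGFP mice (2 plates, Pdgfra1 and Pdgfra2) and 1445 cells of Cldn5-eGFP mice (4 plates, EC3 to EC6).

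In the mural line both fluorescent proteins mark the mural cells of brain vessels, the pericytes and smooth muscle cells, while each protein alone also marks other cells, so this sort holds what both reporters share. The Pdgfrb and Cldn5 reporters are carried on bacterial artificial chromosomes, and Cldn5, a tight junction gene, marks brain endothelium. Pdgfra-H2BGFP puts green fluorescence in the nuclei of oligodendrocyte lineage cells and of a perivascular population. The labels name no animals, so each line was 1 sample, no difference has a test, and ranges over plates show only the spread between plates of a line. Pdgfrb was read in 99.8% of cells and Cspg4, the gene for NG2, in 99.2% of cells of the mural line. Pdgfrb was read in 1.25% of Cldn5-eGFP cells, in which Cldn5 was read in 100% of cells. Pdgfra was read in 29.6% of Pdgfra-H2BGFP cells, which included 150 oligodendrocyte-like cells. Reads in genes lay between 99905 and 1606954 per cell with a median of 350339, and plate Pdgfra1 had a median of 914412 against 439082 on plate Pdgfra2.

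An ATP-sensitive potassium channel joins pore-forming subunits of the inward rectifier (Kir) family with sulfonylurea receptors of the ABCC transporter family, and it needs both to reach the cell surface. It closes when ATP is plentiful and opens when ATP falls or ADP rises, which hyperpolarizes the cell, shuts voltage-gated calcium channels and, in a vessel wall, lowers tone. Kcnj8 and Abcc9 encode the pore and the receptor of the vascular form, and Kcnj11 and Abcc8 those of the form known from pancreatic beta cells and neurons.

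The genes lie as 2 neighbouring pairs in the GENCODE M21 annotation of mm10, all on the minus strand. Kcnj8 (ENSMUSG00000030247.9) occupies chr6:142564837-142571614 and Abcc9 (ENSMUSG00000030249.15) chr6:142587862-142702315, with 16247 bases between them. Kcnj11 (ENSMUSG00000096146.2) occupies chr7:46093953-46100764 and Abcc8 (ENSMUSG00000040136.10) chr7:46104523-46180033, with 3758 bases between them. The antisense gene 5330439B14Rik overlaps Abcc9, and since the sources used here do not state the strand setting of the counting, reads of these 2 genes may not have been told apart. 5330439B14Rik itself had 2.06 CPM in the mural line (CPM, the reads of a gene as a share of all reads in genes, scaled to a total of 1000000).

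The pairs are paralogues, and the stretches that could share reads are shown because shared reads would bear on the low values of Kcnj11 and Abcc8. Their part in these values was not tested. The aligned coding sequences of Kcnj8 and Kcnj11 were 75.0% identical, with a longest identical run of 21 bases, and those of Abcc9 and Abcc8 were 71.5% identical, with a longest run of 23 bases. Capitals mark these runs, taken from GENCODE M21 coding transcripts on the minus strand of mm10 with 12 bases on each side. The stretches lie at chr6:142566199-142566243 (Kcnj8, in 1 exon), chr7:46099247-46099291 (Kcnj11, in 1 exon), chr6:142687434-142689002 (Abcc9, 47 bases joined over an intron) and chr7:46167128-46169862 (Abcc8, 47 bases joined over an intron).
Kcnj8: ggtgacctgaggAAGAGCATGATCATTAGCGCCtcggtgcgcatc
Kcnj11: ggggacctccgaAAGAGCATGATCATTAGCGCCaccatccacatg
Abcc9: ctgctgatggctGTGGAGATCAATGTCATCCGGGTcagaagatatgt
Abcc8: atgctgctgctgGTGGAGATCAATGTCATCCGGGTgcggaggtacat
A read longer than these runs would meet a mismatch, and the sources used here do not state the read length.

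The promoter windows of Kcnj8 and Abcc9 are shown because the levels of these neighbours moved together across cells, as described below. The RefSeq promoter table, on GRCm38.p6, gave the 250 bases before the annotated start of Kcnj8 (chr6:142571615-142571864, minus strand) and 209 bases before that of Abcc9 (chr6:142702316-142702524, minus strand), where the 41 bases nearest the RefSeq start were left out because GENCODE places them in the gene. Capitals mark CACCC or its reverse complement, GGGTG.
Kcnj8: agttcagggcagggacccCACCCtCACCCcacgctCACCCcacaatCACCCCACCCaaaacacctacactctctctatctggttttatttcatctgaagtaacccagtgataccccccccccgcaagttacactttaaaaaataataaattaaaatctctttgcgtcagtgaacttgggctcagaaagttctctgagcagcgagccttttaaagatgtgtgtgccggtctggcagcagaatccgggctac
Abcc9: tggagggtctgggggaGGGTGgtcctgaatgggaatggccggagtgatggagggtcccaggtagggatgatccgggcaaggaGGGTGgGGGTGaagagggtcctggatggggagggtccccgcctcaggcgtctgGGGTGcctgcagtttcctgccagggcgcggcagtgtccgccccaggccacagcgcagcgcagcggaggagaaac
Each gene had 5 matches to CACCC within the 250 bases before the RefSeq start, counted on both strands. At least 1 match stood in 52.0% of the 32851 promoter windows in the table. For Abcc9, 4 of the 5 lie in the printed bases and 1 in the 41 bases left out. Each gene also had 1 match to CANNTG (66.2% of windows), which for Abcc9 lies in the 41 bases left out. Neither had a match on either strand to TATAAA (12.4% of windows), to the CArG box (1.47%), to the MEF2 site (2.92%) or to GTGGGAA (5.42%). A match or its lack is a description of these letters.

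Kcnj8 and Abcc9 were among the most abundant RNAs of the mural line and nearly absent from the Cldn5-eGFP line. Kcnj8, the vascular pore, had 2479, 2415, 2569 and 2780 CPM on the mural plates, against 0.36, 0, 0.79 and 0.32 CPM on the Cldn5-eGFP plates. Abcc9, its sulfonylurea receptor, had 1559, 1649, 1655 and 1490 CPM on the mural plates, against 0.27, 0.25, 3.91 and 1.55 CPM on the Cldn5-eGFP plates. The plates of the 2 lines did not overlap for either gene.

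Over whole lines, Kcnj8 had 2566 CPM in the mural line (2562 to 2571, exact Poisson interval at 95%, counting error only) and 0.37 CPM (0.32 to 0.43) in the Cldn5-eGFP line, a 6949-fold difference. Abcc9 had 1589 CPM (1585 to 1592) in the mural line and 1.49 CPM (1.38 to 1.60) in the Cldn5-eGFP line, a 1068-fold difference. On the log2 scale with 1 CPM added to each level the differences were 10.87 and 9.32, which ranked Kcnj8 the 5th and Abcc9 the 15th from the highest of 11112 genes with at least 5 CPM in either line. Of these genes 19.4% were at least 2-fold higher in the mural line, and 13.8% at least 2-fold lower. Without plate EC5, which held most of the Cldn5-eGFP Abcc9 reads, the log2 difference of Abcc9 was 9.88. Kcnj8 was the 18th and Abcc9 the 40th most abundant of 19937 genes in the mural line by CPM. With CPM divided by exon length, they were 17th and 161st of the 18903 genes with a length.

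In cells, Kcnj8 was read in 1363 of 1484 mural line cells (91.8%, exact binomial interval 90.3 to 93.2) and Abcc9 in 1311 (88.3%, 86.6 to 89.9). Kcnj8 was read in 12 of 1445 Cldn5-eGFP cells (0.830%, 0.430 to 1.45) and Abcc9 in 22 (1.52%, 0.957 to 2.30). Of the 12 Cldn5-eGFP cells with Kcnj8, 10 lay on plate EC5 and 6 had 1 read. With each cell thinned to 100000 reads, Kcnj8 was read in 83.3% of mural line cells and 0.623% of Cldn5-eGFP cells. The summed pericyte markers of the Cldn5-eGFP cells with Kcnj8 had a median of 3.41 CPM (0 to 299). The part of other cells in these few reads was not tested.

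Kcnj11 and Abcc8, the genes of the beta cell and neuronal form, stayed at trace level in all 3 lines. Kcnj11 had 73 reads in 5 of 1484 mural line cells (0.15 CPM), 2 reads in 1 of 257 Pdgfra-H2BGFP cells (0.01 CPM) and 6 reads in 2 of 1445 Cldn5-eGFP cells (0.01 CPM). Abcc8 had 629 reads in 17 mural line cells (1.26 CPM), 63 reads in 5 Pdgfra-H2BGFP cells (0.40 CPM) and 22 reads in 6 Cldn5-eGFP cells (0.04 CPM). Neither gene reached 5 CPM in any line, so neither entered the ranking of differences. The reads were concentrated in few wells: the 3 wells with most reads held 89.0% of the Kcnj11 reads and 56.1% of the Abcc8 reads of the mural line. The highest single well had 300.3 CPM of Kcnj11, from 30 reads, and another well had 730 CPM of Abcc8. The well with 30 Kcnj11 reads fell in an endothelial-like cluster. Its summed endothelial markers were 50.0 CPM and its summed pericyte markers 43942 CPM, so it is not read as an endothelial cell. Kcnj11 and Abcc8 were read together in 1 cell of each line. The expected number of cells with both, if the genes were read independently, was 0.057 in the mural line.

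The Pdgfra-H2BGFP line lay between the other lines and its plates differed. Kcnj8 had 320 CPM on plate Pdgfra1 and 18.4 CPM on plate Pdgfra2, and Abcc9 had 222 CPM on Pdgfra1 and 9.41 CPM on Pdgfra2. Kcnj8 was read in 43.9% of cells on Pdgfra1 and 2.67% on Pdgfra2. Against the pooled line, where Kcnj8 had 203 CPM and Abcc9 139 CPM, the mural line was 12.7-fold higher in Kcnj8 (log2 difference 3.66, the 162nd highest of 12013 genes) and 11.4-fold higher in Abcc9 (3.50, the 195th highest). Here 16.1% of genes were at least 2-fold higher and 19.5% at least 2-fold lower in the mural line. Without plate Pdgfra1 these log2 differences were 7.05 for Kcnj8 and 7.25 for Abcc9, and without plate Pdgfra2 they were 3.00 and 2.83, so the size of this contrast rests on which plate is used while its direction held on both.

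Within their gene families Kcnj8 and Abcc9 stood first in the mural line. Per kilobase of exon, Kcnj8 had 1007 CPM per kb in the mural line, and the next of the 14 inward rectifier genes was Kcnj12, a classical strong rectifier, with 21.9 CPM per kb. Abcc9 had 190 CPM per kb, and the next of the 11 ABCC genes was Abcc5, a nucleotide and organic anion exporter, with 7.83 CPM per kb. In the Cldn5-eGFP line Kcnj2, another strong inward rectifier, led the first family with 3.43 CPM per kb and Abcc4, an organic anion and cyclic nucleotide exporter, led the second with 58.2 CPM per kb. In the Pdgfra-H2BGFP line Kcnj8 had 79.5 CPM per kb and Kcnj10, the glial rectifier, 36.3 CPM per kb, while Abcc9 had 16.6 and Abcc5 9.44 CPM per kb. Most of this Kcnj8 and Abcc9 came from 10 cells of this line, described below, so their order in the families is not read from it.

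**Figure D1:**
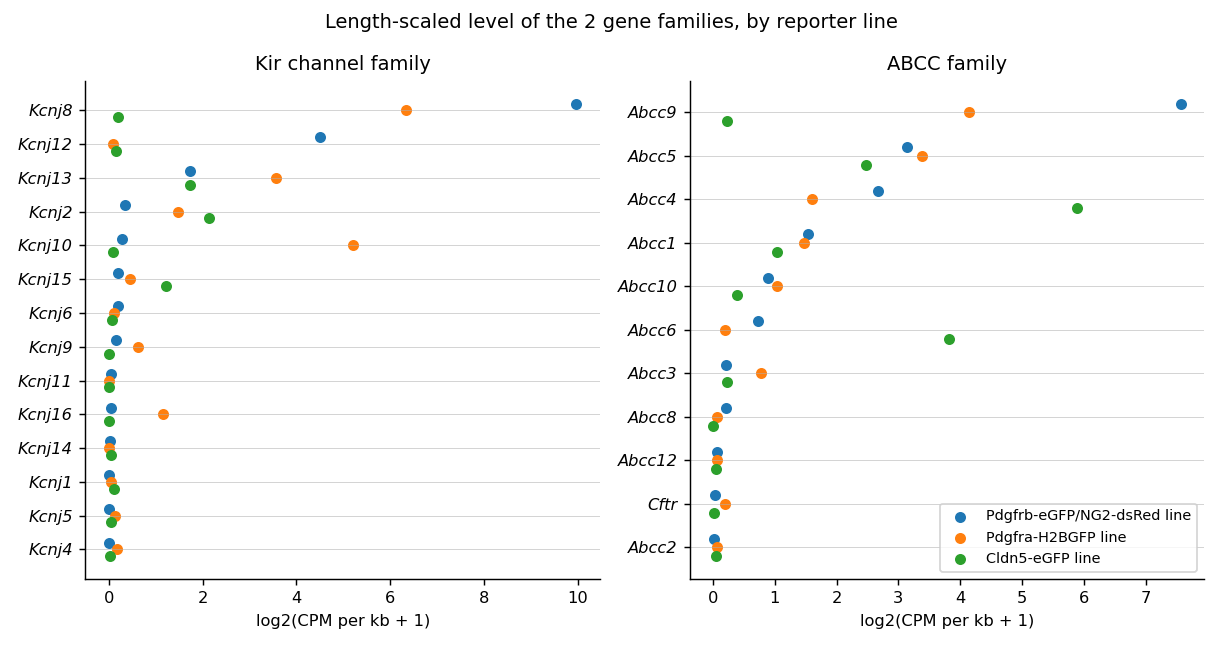
Length-scaled levels, as log2(CPM per kb + 1), of 14 inward rectifier genes (left) and 11 ABCC genes (right), 1 point per gene and reporter line with no error shown. Kcnj8 and Abcc9 stand far to the right in the Pdgfrb-eGFP/NG2-dsRed line, at 1007 and 190 CPM per kb, while Kcnj11 and Abcc8 sit near 0 in every line.

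Per length, the pooled receptor RNA was less abundant than the pore RNA in the mural and Pdgfra-H2BGFP lines and in the groups of cells given here. The ratio of Abcc9 to Kcnj8, each in CPM per kb, was 0.19 in the mural line, and 0.19, 0.21, 0.20 and 0.16 on its 4 plates. It was 0.38 in fibroblast-like cells, 0.25 in cluster 9, 0.19 in pericyte-like cells and 0.10 in smooth muscle-like cells. Plates differed within classes: smooth muscle-like cells had 8.91 CPM of Abcc9 and 10.6 of Kcnj8 on Mural3, but 12.4 and 60.6 on Mural6. Fibroblast-like cells had 230 CPM of Abcc9 and 173 of Kcnj8 on Pdgfra1, but 0.18 and 111 on Pdgfra2. The order of these classes is therefore not read from the ratios. In the Cldn5-eGFP line, where both were at trace level, the ratio was 1.23. With the length of the longest transcript in place of all exons the mural ratio was 0.21. How much of this RNA is made into protein is not measured here.

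Cells were then grouped by clustering without the 4 channel genes, Acta2, the eGFP reporter or the gene lists used below, and clusters were named from marker genes. Kcnj8 and Abcc9 were not among the markers. The mural line held 1166 pericyte-like cells (clusters 1, 8 and 9), 184 smooth muscle-like cells (cluster 6), 84 endothelial-like cells and 50 cells in unnamed clusters. The Pdgfra-H2BGFP line held 150 oligodendrocyte-like and 77 fibroblast-like cells. A well was called mixed if it held another class's markers at 10% or more of what a median cell of that other class has, with pericyte and smooth muscle markers not set against each other. Mixed wells made up 10.5% of pericyte-like, 2.72% of smooth muscle-like and 16.9% of fibroblast-like cells and were kept. Among all 1514 endothelial-like cells 32 were mixed, and all of these lay in the mural line.

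Among the named classes Kcnj8 and Abcc9 were highest in pericyte-like cells, which held 95.8% of the Kcnj8 reads and 96.8% of the Abcc9 reads of the mural line. In pericyte-like cells Kcnj8 had 3081, 2987, 3260 and 3352 CPM on plates Mural3 to Mural6 and was read in 97.9% of cells (96.9 to 98.6). Abcc9 had 2007, 2064, 2099 and 1802 CPM on these plates and was read in 96.1% of cells (94.8 to 97.1). In the middle pericyte-like cell Kcnj8 had 2605 CPM, with quartiles of 1301 and 4335 CPM, and Abcc9 had 1607 CPM, with quartiles of 610 and 2880 CPM.

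The pericyte-like clusters differed among themselves. Cluster 1 (906 cells), led by Nodal, Uchl1 and Sebox, had 3559 CPM of Kcnj8 (3434 to 3655 over plates) and 2229 CPM of Abcc9. Cluster 8 (140 cells), led by Spp1, had 2589 CPM of Kcnj8 (2198 to 2721) and 1424 CPM of Abcc9. Cluster 9 (120 cells), led by Adamts16, Ephx3 and Olfr558, had the lowest levels of the 3, with 1076 CPM of Kcnj8 (714 to 1354) and 889 CPM of Abcc9 (574 to 1109). Over plates Abcc9 had 1038 to 1591 CPM in cluster 8. The plate ranges of Kcnj8 in these clusters did not overlap, while those of Abcc9 overlapped between clusters 8 and 9. Cluster 9 had a median Acta2 of 480 CPM, against 3.77 CPM in cluster 1 and 4.10 CPM in cluster 8. Its summed pericyte markers averaged 43995 CPM, against 64852 CPM in cluster 1 and 65543 CPM in cluster 8, and their part in its lower channel RNAs was not tested.

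**Figure D2:**
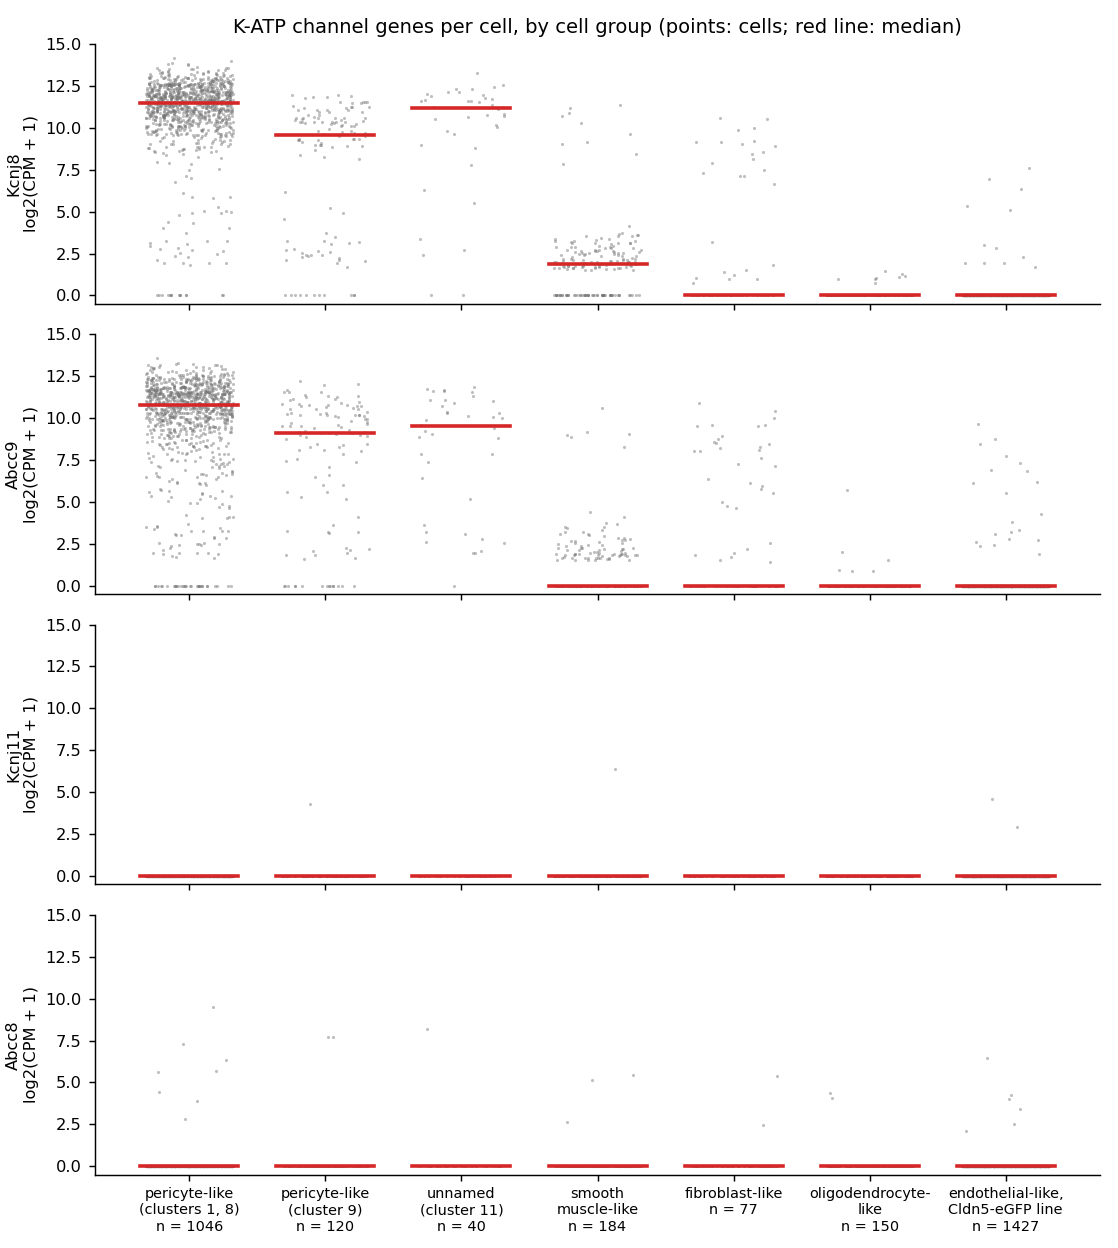
Levels of the 4 channel genes in single cells, as log2(CPM + 1), for 7 groups of cells; each point is 1 cell and the red line is the median. Kcnj8 and Abcc9 form a dense high band in pericyte-like cells and cluster 11, split into high and near-zero cells in cluster 9, and are mostly at 0 or a few reads in the other groups, while Kcnj11 and Abcc8 are read in scattered cells.

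Smooth muscle-like cells had little of either RNA, and what they had came from few wells. Kcnj8 had 10.6, 64.8, 127.6 and 60.6 CPM on plates Mural3 to Mural6 in these cells, and Abcc9 had 8.91, 20.8, 46.9 and 12.4 CPM. All of these values lay below the lowest plate of any pericyte-like cluster. A Kcnj8 read was found in 127 of 184 smooth muscle-like cells (69.0%), but 67 of these cells had 1 read and 115 had fewer than 5. Only 10 cells had at least 50 CPM of Kcnj8, and they held 96.0% of the class's Kcnj8 reads. Thinned to 100000 reads, 28.3% of smooth muscle-like cells had a Kcnj8 read, against 95.5% of pericyte-like cells.

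The low counts in smooth muscle-like wells had a counterpart in other cells of the same plates. Among the 84 endothelial-like cells of the mural plates, 50 had a Kcnj8 read, 31 of these with fewer than 5 reads. Over the 4 plates the 84 cells had 177 to 425 CPM of Kcnj8. Reads were concentrated: over all 1514 endothelial-like cells, 22 wells with at least 50 CPM held 99.0% of the Kcnj8 reads. In the 50 cells with a read the summed pericyte markers had a median of 6168 CPM (56.3 to 43942), against 2858 CPM in those without. Summed endothelial markers of the 50 cells ran from 5.31 to 34746 CPM, so not all of these wells read as endothelial. The 1427 endothelial-like cells of the Cldn5-eGFP plates had 0.37 CPM of Kcnj8. In cluster 12, led by microglial and macrophage genes such as Ctss and Csf1r, 11 of 12 mural line wells had a Kcnj8 read, with a median of 3197 CPM, and their pericyte markers had a median of 49847 CPM. Only 2 of 11 Pdgfra-H2BGFP wells and 0 of 6 Cldn5-eGFP wells of this cluster had one. Smooth muscle-like cells with a Kcnj8 read had a median of 4065 CPM of summed pericyte markers, against 2745 CPM in those without. Pericyte RNA thus moved with these reads, and its part in the low reads of smooth muscle-like cells was not tested.

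In the Pdgfra-H2BGFP line the channel RNAs lay in cluster 11 and in fibroblast-like cells, and hardly in oligodendrocyte-like cells. Cluster 11 took no name, because only 3 of 8 pericyte markers (37.5%) were high in it. Its leading genes included Steap4 and Colec11, and it held 30 mural line cells and 10 Pdgfra-H2BGFP cells. These 10 cells made up 3.89% of the Pdgfra-H2BGFP line but 73.3% of its Kcnj8 reads and 51.7% of its Abcc9 reads. Kcnj8 was read in 10 of 10, from 44.2 to 6058 CPM with a median of 3164 CPM, and Abcc9 in 10 of 10, from 7.36 to 3696 CPM with a median of 1463 CPM. The 30 mural line cells of cluster 11 had medians of 1645 CPM of Kcnj8 and 457 CPM of Abcc9.

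Those 10 Pdgfra-H2BGFP cells had reads of pericyte and of fibroblast markers, all but Rgs5 below the level of the class they mark. Rgs5, a pericyte marker, had 5166 CPM against 4092 CPM in pericyte-like cells, while Higd1b, another, had 75.5 CPM against 1360 CPM in pericyte-like cells. Dcn, a fibroblast marker that encodes decorin, had 2441 CPM against 104 CPM in pericyte-like cells and 17627 CPM in fibroblast-like cells. Of the other pericyte markers, Vtn had 6785 against 39359 CPM and Atp13a5 491 against 10013 CPM in pericyte-like cells. Of the other fibroblast markers, Lum had 156 against 6482 CPM and Mfap4 0.46 against 1050 CPM in fibroblast-like cells. Without cluster 11 the log2 difference between the mural and Pdgfra-H2BGFP lines was 5.48 for Kcnj8 and 4.49 for Abcc9.

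Fibroblast-like cells held 26.7% of the Kcnj8 reads and 48.0% of the Abcc9 reads of the Pdgfra-H2BGFP line. Kcnj8 was read in 27 of 77 fibroblast-like cells (35.1%, 24.5 to 46.8) and Abcc9 in 35 (45.5%, 34.1 to 57.2), with pooled levels of 166 and 205 CPM. Abcc9 had more CPM than Kcnj8 in this class on Pdgfra1 (230 and 173 CPM) but not on Pdgfra2 (0.18 and 111 CPM). The plates differed: Kcnj8 was read in 51.0% of 51 cells on Pdgfra1 and in 3.85% of 26 cells on Pdgfra2, where the median cell had 171056 reads against 879320 on Pdgfra1. On Pdgfra2 the Kcnj8 reads came from 1 cell, with 1457 CPM. Depth moved with this difference, and its part was not tested.

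The fibroblast-like cells with Kcnj8 had pericyte markers at unequal levels. In the 18 cells with at least 50 CPM of Kcnj8, which together had 545 CPM, Higd1b had 0.064 CPM, Rgs5 0.19 CPM, Ndufa4l2 19.5 CPM, Atp13a5 52.9 CPM, Anpep 86.2 CPM, P2ry14 101 CPM, Pdgfrb 800.2 CPM and Vtn 2526 CPM. Each of these 8 pericyte markers was lower than in pericyte-like cells, where they ran from 325 CPM (Anpep) to 39359 CPM (Vtn). The fibroblast markers Dcn and Lum, the gene for lumican, had 15917 and 7213 CPM in the 18 cells. Summed pericyte markers had a median of 1244 CPM in fibroblast-like cells with a Kcnj8 read and 1538 CPM in those without, and the part of pericyte RNA in these Kcnj8 reads was not tested. In oligodendrocyte-like cells Kcnj8 was read in 8 of 150 cells, 7 of them with 1 read, for 0.10 CPM, and Abcc9 had 0.62 CPM.

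Along the Acta2 level of mural line cells, Kcnj8 and Abcc9 stayed level and then fell. Acta2 encodes the actin of smooth muscle, and cells were binned by their own Acta2 CPM. In the order of no Acta2 read (311 cells), under 10 CPM (715), 10 to under 100 (178), 100 to under 1000 (28), 1000 to under 10000 (71) and 10000 and over (181), Kcnj8 had 3202, 3133, 2931, 1127, 738 and 57.4 CPM. Abcc9 had 1904, 1930, 2078, 690, 393 and 20.5 CPM in the same order. The first 3 bins overlapped between plates for both genes, and the fall began above 100 CPM of Acta2.

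Between the ends of this axis the plates did not overlap. In the highest bin Kcnj8 had 3.73, 50.9, 128.8 and 29.7 CPM on plates Mural3 to Mural6, against 2822, 2726, 3575 and 3779 CPM in the bin with no Acta2 read. Abcc9 had 2.61, 12.6, 47.3 and 12.9 CPM in the highest bin, against 1927, 1750, 1940 and 2011 CPM with no Acta2 read. Pooled, Kcnj8 was 55.8-fold lower in the highest bin (log2 difference -5.78, the 47th lowest of 11018 genes) and Abcc9 93.1-fold lower (-6.47, the 27th lowest). Of these genes 19.3% were at least 2-fold lower and 13.4% at least 2-fold higher in the highest bin. Without plate Mural5, which had the highest values in the highest bin, the log2 differences were -6.69 for Kcnj8 and -7.46 for Abcc9. With 6 bins of equal size in place of these they were -3.76 and -4.08.

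**Figure D3:**
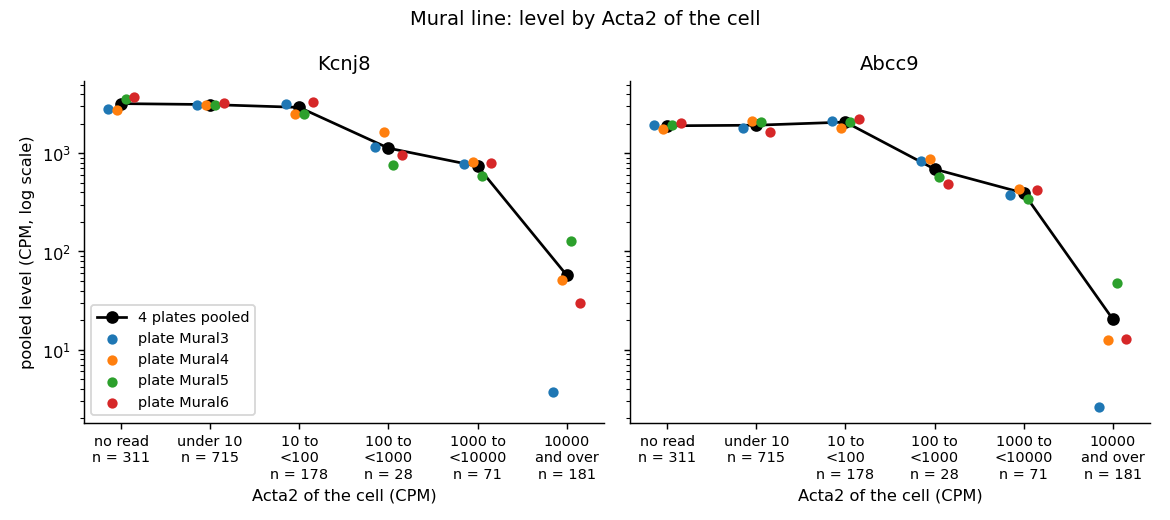
Pooled level of Kcnj8 and of Abcc9 in CPM, on a log axis, in 6 bins of the mural line cells' own Acta2 level; black points join the 4 plates pooled and coloured points are single plates. Both genes keep their level up to 100 CPM of Acta2 and then drop, to 57.4 and 20.5 CPM in the highest bin, where the plates spread most.

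The fall had 2 components, fewer high cells and lower levels in the high cells. Intermediate levels of Kcnj8 were uncommon: in the bin of 1000 to under 10000 CPM of Acta2, 30 of 71 cells had under 20 CPM of Kcnj8, 2 had 20 to under 200 CPM and 39 had 200 CPM or more. The share at 20 to under 200 CPM was at most 3.57% in any bin for Kcnj8, and for Abcc9 it reached 21.4% in the bin of 100 to under 1000 CPM, or 6 of 28 cells. The share of cells at 200 CPM or more was 90.0, 89.2, 88.2, 64.3, 54.9 and 4.42% from the lowest to the highest bin for Kcnj8, and 82.0, 82.9, 83.7, 57.1, 40.8 and 2.21% for Abcc9. Among those high cells alone, the median of Kcnj8 was 2998, 2964, 2450, 1452, 857 and 905 CPM in the same order, the last over 8 cells. That of Abcc9 was 2051, 1898, 1787, 1120, 814 and 515 CPM, the last over 4 cells.

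Markers of both mural cell types moved along the same axis. Summed pericyte markers averaged 58910, 60416, 59228, 42383, 34937 and 6299 CPM from the lowest to the highest bin, and summed smooth muscle markers, which include Acta2 itself, 601, 661, 674, 2047, 7340 and 46738 CPM. Median depth was 333715, 349376, 279208, 311086, 320156 and 377814 reads. The axis thus runs from pericyte-like to smooth muscle-like cells, and the change within a type and the change of type cannot be told apart across the whole of it. Within pericyte-like cells alone the Pearson correlation across 1166 cells with Acta2, on log2(CPM + 1), was -0.39 for Kcnj8 and -0.31 for Abcc9. The Spearman rank correlation in the same cells was weaker, at -0.20 and -0.13. This class includes cluster 9, with the higher Acta2 given above. Within the 1204 cells under 100 CPM of Acta2 the Pearson correlation was -0.04 and 0.01. These correlations are descriptions over cells that share plates and library preparation.

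Most mural line cells had reads of both genes of the vascular pair. Kcnj8 and Abcc9 were both read in 1243 of 1484 cells (83.8%, 81.8 to 85.6), with 82.5 to 85.1% over plates. Independent reading of the 2 genes would give 1204 cells over the whole line, or 1226 within the Acta2 bins. Both were read in 1100 of 1166 pericyte-like cells (94.3%), 61 of 184 smooth muscle-like cells (33.2%), 21 of 77 fibroblast-like cells (27.3%) and 1 of 1445 Cldn5-eGFP cells. In the Pdgfra-H2BGFP line both were read in 34 of 257 cells, where independent reading over this mixture of cell types would give 11.1. Of cells with Abcc9 in the mural line 94.8% also had Kcnj8, and of cells with Kcnj8 91.2% also had Abcc9.

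Mural line cells with 1 gene alone had few reads of that gene, and those with 1 gene alone or neither were more often high in Acta2 than those with both. Acta2 reached 1000 CPM in 64.2% of cells with Kcnj8 alone, 42.6% with Abcc9 alone, 71.7% with neither and 8.69% with both. The 120 mural line cells with Kcnj8 alone had a median of 2 Kcnj8 reads and of 11822 CPM of Acta2, and 66 of them were smooth muscle-like. The 68 cells with Abcc9 alone had a median of 2 Abcc9 reads and of 41.6 CPM of Acta2, and 24 of them were smooth muscle-like. The 53 cells with neither had a median Acta2 of 23616 CPM, and 33 of them were smooth muscle-like. At a threshold of 50 CPM, both genes passed in 993 of 1166 pericyte-like cells (85.2%), Kcnj8 alone in 90, Abcc9 alone in 51 and neither in 32.

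The levels of the 2 genes also rose together among pericyte-like cells. With these cells divided into 4 equal groups by Kcnj8, whose medians were 617, 1954, 3346 and 6068 CPM, the median Abcc9 was 980, 1460, 1799 and 2467 CPM. In the first group plate medians of Abcc9 ran from 800 to 1180 CPM and in the last from 2320 to 2726 CPM, with no overlap. Median depth in the 4 groups lay between 322967 and 341373 reads. The Pearson correlation of Kcnj8 with Abcc9 was 0.71 over all mural line cells (0.67 to 0.75 within plates) and 0.34 over pericyte-like cells (0.30 to 0.40 within plates).

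**Figure D4:**
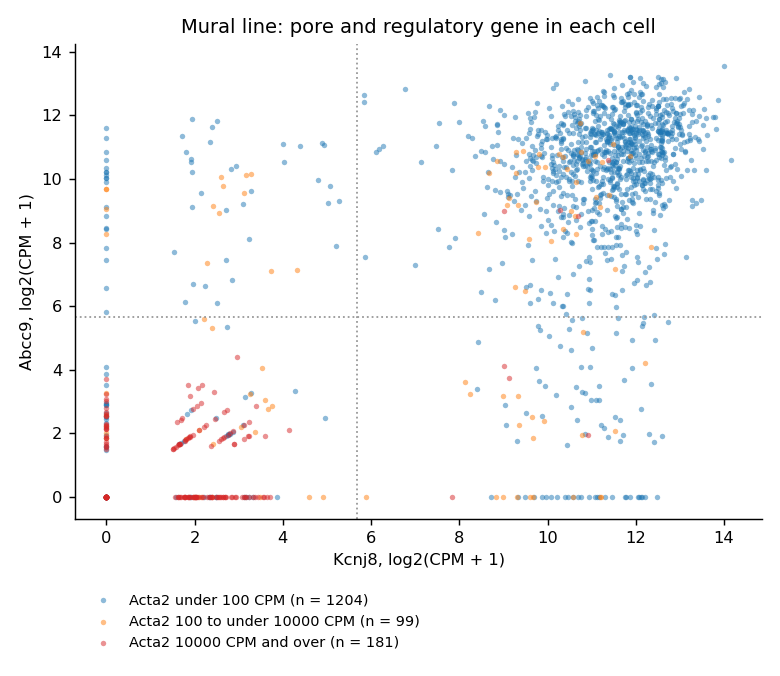
Kcnj8 against Abcc9, both as log2(CPM + 1), in 1484 mural line cells coloured by their Acta2 level; dotted lines mark 50 CPM. Most cells under 100 CPM of Acta2 lie in the upper right, with both genes high, and cells of 10000 CPM and over lie at the lower left, where 173 of 181 have neither gene at 50 CPM.

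The genes most like Kcnj8 and Abcc9 across mural line cells included pericyte naming markers and each other. Likeness was the lowest of the 4 within-plate Pearson correlations on log2(CPM + 1), over 1484 cells and 6665 genes. The 10 genes most like Kcnj8 included Vtn (0.75), Atp13a5 (0.68), Abcc9 (0.67), Slc6a20a (0.66), Ptn (0.63), Plxdc2 (0.59), Sod3 (0.57), Pdgfrb (0.57) and the reporter eGFP (0.53). The 10 most like Abcc9 included Kcnj8 (0.67), Vtn (0.65), Atp13a5 (0.62), Slc6a20a (0.58), Ptn (0.57), Sod3 (0.52), Pdgfrb (0.48), Higd1b (0.48) and Art3 (0.47). Vtn encodes vitronectin, Slc6a20a a proline transporter, Ptn the growth factor pleiotrophin and Sod3 extracellular superoxide dismutase. Vtn, Atp13a5, Pdgfrb and Higd1b were also naming markers of pericytes.

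The genes at the other end included Acta2 and Tagln, both naming markers of smooth muscle. The genes least like Kcnj8, by the highest of the 4 within-plate correlations, were Sorbs2 (-0.63), Rcan2 (-0.61), Cav1 (-0.60), Tagln (-0.59) and Sncg (-0.59). Those least like Abcc9 were Tagln (-0.62), Acta2 (-0.61), Sorbs2 (-0.58), Csrp1 (-0.58) and Sncg (-0.57). Tagln encodes the actin-binding protein transgelin, Rcan2 a calcineurin regulator and Cav1 the caveola protein caveolin. In pericyte-like cells alone, a set taken after the values were seen, Abcc9 was the gene most like Kcnj8 and Kcnj8 the gene most like Abcc9, both with a lowest plate correlation of 0.30. Uchl1 came next to Kcnj8 with 0.29. Over all pericyte-like cells pooled, Vtn had a higher correlation with Kcnj8 (0.38) than Abcc9 had (0.34).

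The genomic neighbours of Kcnj8 and Abcc9 did not share their pattern as a block. Ldhb, a lactate dehydrogenase gene 56880 bases from Kcnj8, had 133 CPM in the mural line and 49.0 CPM in the Cldn5-eGFP line (log2 difference 1.43), and 131 CPM in the highest Acta2 bin against 141 CPM with no Acta2 read (-0.11). Cmas, a sialic acid activation gene 54371 bases from Abcc9, had log2 differences of -0.35 and -0.61 in these contrasts. St8sia1, a ganglioside sialyltransferase gene 119230 bases from Abcc9, had 13.7 CPM in the mural line and 0.18 CPM in the Cldn5-eGFP line, and no read in the highest Acta2 bin against 21.8 CPM with no Acta2 read. Golt1b, a vesicle transport gene, differed by 1.16 between these lines and -0.53 along Acta2. Recql and Pyroxd1 differed by less than 2-fold in both contrasts, and Gys2 and Slco1a5 did not reach 5 CPM. Near Kcnj11 and Abcc8, the other ABCC gene Abcc6 had 3.75 CPM in the mural line and 74.9 CPM in the Cldn5-eGFP line, and Nomo1 had 47.2 and 194 CPM, while Emp3, a membrane protein gene, had 98.5 CPM in the mural line and 3.30 CPM in the Cldn5-eGFP line.

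Genes that act with the channel were read from lists by function, each member counted where it had at least 5 CPM on either side. Of the other inward rectifiers, 3 of 12 could be compared between the mural and Cldn5-eGFP lines, 1 was at least 2-fold higher and 2 were lower, beside 19.4% and 13.8% over all genes. The 2 were Kcnj2 and Kcnj15. Kcnj12 had 60.1 CPM in the mural line and 0.31 CPM in the Cldn5-eGFP line. Along Acta2 it had 65.7 CPM in the highest bin against 58.0 CPM with no Acta2 read, a log2 difference of 0.18 where that of Kcnj8 was -5.78. Of the other ABCC genes, 4 of 9 could be compared along Acta2, and 2 were lower in the highest bin, beside 19.3% over all genes. These were Abcc4, with 0.64 CPM against 54.1 CPM with no Acta2 read, and Abcc6, with 0 CPM against 6.64 CPM.

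Genes of adenine nucleotide and glucose handling set the signals that the channel reads. Between the mural and Cldn5-eGFP lines 6 of 17 compared were at least 2-fold higher and 1 lower (19.4% and 13.8% over all genes), with a median log2 difference of 0.76 against 0.12 over all genes compared. In that contrast Prkaa2, a catalytic subunit of the energy sensor AMP kinase, had 30.9 CPM in the mural line and 0.36 CPM in the Cldn5-eGFP line, and Ckb, brain-type creatine kinase, 282 and 21.5 CPM. Along Acta2, 5 of 17 were higher in the highest bin and 1 lower (13.4% and 19.3% over all genes), with a median of 0.69 against -0.15 over all genes compared. Ckb had 1238 CPM in the highest bin against 141 CPM with no Acta2 read, Ak1, an adenylate kinase, 54.9 against 5.05 CPM, and Pfkp, a phosphofructokinase, 251 against 32.1 CPM. Of the catalytic AMP kinase subunits, Prkaa2 had 119 CPM in the highest bin against 21.9 CPM, and Prkaa1 had 85.5 CPM in the highest bin against 233 CPM.

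Receptors that act through Gs, and the genes of cyclic AMP and protein kinase A signalling, which opens the channel, moved in both directions. Of 18 genes compared along Acta2, 4 were at least 2-fold higher and 6 lower in the highest bin, with a median of 0.17, beside 13.4% higher and 19.3% lower over all genes. Ramp1, a partner of the CGRP receptor, had 262 CPM in the highest bin against 2.42 CPM with no Acta2 read, Pde3a, a cyclic AMP phosphodiesterase, 341 against 15.0 CPM, and the prostacyclin receptor gene Ptgir 43.5 against 6.44 CPM. The adenosine receptor gene Adora2a had 26.4 against 175 CPM, Rapgef3, a cyclic AMP sensor, 29.5 against 94.8 CPM, and the PACAP receptor gene Adcyap1r1 27.7 against 79.0 CPM. Between the mural and Cldn5-eGFP lines 8 of 17 genes of the list were higher and 2 lower (19.4% and 13.8% over all genes). Adora2a had 146 CPM in the mural line and 4.86 CPM in the Cldn5-eGFP line.

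Genes of vasoconstrictor receptors, of Gq and of protein kinase C, which closes the vascular channel, gave 4 higher and 2 lower of 12 compared along Acta2, with a median of 0.08. Over all genes 13.4% were higher and 19.3% lower. The 4 were the receptor genes Npy1r and Adra1b, the phospholipase gene Plcb4 and the kinase gene Prkcd, and the 2 were the receptor gene Ednrb and the G protein gene Gnaq. Npy1r, whose neuropeptide Y receptor is known to couple mainly to Gi, had 802 CPM in the highest bin against 111 CPM with no Acta2 read, and Prkcd 120 against 19.3 CPM. Of the endothelin receptor genes, Ednrb had 0.90 against 36.8 CPM, while Ednra had 466 against 445 CPM. Between the mural and Cldn5-eGFP lines 5 of 12 were higher and 2 lower, beside 19.4% and 13.8% over all genes.

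Among 8 genes of channel trafficking and membrane partners, 4 were higher and 2 lower in the highest Acta2 bin, beside 13.4% and 19.3% over all genes. Ank2, an ankyrin, had 5.78 CPM in the highest bin against 71.8 CPM with no Acta2 read, and Cav1 had 750 against 79.3 CPM. Between the mural and Cldn5-eGFP lines 1 of 7 was higher, Ank2, and 3 were lower (19.4% and 13.8% over all genes). Of 15 genes of calcium entry and contraction, the machinery downstream of the channel, 11 were higher and 0 lower in the highest bin (13.4% and 19.3% over all genes). There Ryr2, a calcium release channel, had 127.5 against 0.30 CPM, Kcnma1, the pore of the large calcium-activated potassium channel, 51.4 against 0.09 CPM, and Cacna1c, the voltage-gated calcium channel pore, 205 against 173 CPM. The bins were cut on Acta2, itself a contractile gene, and Myh11 and Mylk of this list were also naming markers of smooth muscle. The count of 11 is thus not independent of the axis. Between the mural and Cldn5-eGFP lines 13 of the 15 were higher and 1 lower (19.4% and 13.8% over all genes), with Cacna1c at 196 CPM in the mural line and 1.48 CPM in the Cldn5-eGFP line.

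Between the mural and Pdgfra-H2BGFP lines, where 16.1% of all genes were higher and 19.5% lower, the lower counts of several lists lay near that share. There 12 of 15 genes of calcium entry and contraction were higher and 0 lower, 7 of 18 Gs and protein kinase A genes were higher and 3 lower, and 4 of 12 Gq and protein kinase C genes were higher and 2 lower. Of the adenine nucleotide and glucose genes 5 of 18 were higher and 4 lower, and of the trafficking genes 1 of 7 was higher and 2 lower. Among the inward rectifiers other than the channel genes 1 of 4 was higher, Kcnj12, and 3 were lower. Among the other ABCC genes 1 of 4 was higher, Abcc4, and 0 were lower.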

How the data were processed

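RNA of 3186 sorted brain cells from 3 reporter lines was analysed. Per the labels' protocols the libraries were made by Smart-seq2, and per the submitters' processing notes STAR 2.4.2a and mm10 were used. The sources used here do not name the gene counter, the gene annotation or any filter. The deposited tables hold counts, whole reads per gene and cell without molecular tags. A second set of tables deposited by the authors holds scaled counts, used as a score: 99.6% of its non-zero values were within 0.75 of the count times 1 factor per cell. No 2 cells had identical counts.

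Counts were pooled over cells and given as CPM of reads in genes, with exact Poisson and exact binomial (Clopper-Pearson) intervals at 95%, which cover counting error only. Log2 differences added 1 CPM. Genes entered a contrast if 1 side reached 5 CPM and were called at a 2-fold difference. A line was 1 sample, so there were no tests. Lengths came from GENCODE M21. Cells were clustered in Python 3.11.15 with scanpy 1.11.5 and leidenalg 0.10.2 on 2000 variable genes, 30 principal components and 15 neighbours at resolution 1. A cluster took a marker set's name when at least 50% of the set was high. It stayed unnamed where another set also was, a step added after the clusters were seen. Doublets were not called. Mixed wells, defined by markers, were kept, with an alternative without them. Other alternatives changed the scaling, the pseudocount, the weight of cells, the Acta2 bins and axis, the thresholds, the depth and the plates.

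Named genes were the 4 channel genes, the 10 most and 5 least alike of genes with 20 CPM and a read in 10% of cells, the 3 highest and 3 lowest differences of a list among its genes of 20 CPM or more, and protein-coding neighbours within 250 kb, of which not all are printed. Some genes that these rules name are not reported here. The members and lists were chosen with earlier results of these data known. Scripts were tested on simulated data.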

Additional observations from a re-analysis of the deposited data

Results flagged for a closer look

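Kcnj11 had 0.43 CPM on plate Mural6, against 0.07 CPM on Mural3, 0 CPM on Mural4 and 0.07 CPM on Mural5. This plate stood apart from the other 3 of its line by the ratio of its gap to the range, a rule that picks out about 1 in 20 groups by chance. The 56 reads on Mural6 came from 2 wells. No such plate was found for Kcnj8, Abcc9 or Abcc8 in the mural or Cldn5-eGFP lines, and the Pdgfra-H2BGFP line has too few plates for the rule.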

How the results depend on the processing

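The direction of each contrast held under all alternatives run. With 0.1 CPM added in place of 1, the log2 difference between the mural and Cldn5-eGFP lines was 12.42 for Kcnj8 and 9.97 for Abcc9. Against the Pdgfra-H2BGFP line the values for Kcnj8 and Abcc9 were 3.93 and 3.84 with the authors' scaled table, 3.93 and 3.84 with the mean of the cells' own CPM and 3.60 and 3.41 without mixed wells. With only pericyte-like and smooth muscle-like cells in the mural line, an alternative chosen after seeing the data, they were 3.74 and 3.59, and without cluster 11, also chosen then, 5.48 and 4.49.

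Along Acta2, Kcnj8 and Abcc9 had -5.85 and -6.61 with the scaled table, -5.40 and -5.95 with an axis of 5 contractile genes, -3.76 and -4.08 with 6 bins of equal size, and -5.88 and -6.59 with only pericyte-like and smooth muscle-like cells. Kcnj8 had -5.71 with smooth muscle markers left out of the total. Cells with both genes were 72.6% at 5 reads, 76.0% thinned to 100000 reads and 86.0% among pericyte-like and smooth muscle-like cells, against 83.8%.

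Leaving out each plate in turn gave 10.75 to 11.03 for Kcnj8 and 9.09 to 9.88 for Abcc9 against the Cldn5-eGFP line, 3.00 to 7.05 and 2.83 to 7.25 against the Pdgfra-H2BGFP line, -6.69 to -5.46 and -7.46 to -6.18 along Acta2, and 83.3 to 84.2% of cells with both genes. Of 90 comparisons of a value with its alternative, 47 moved by no more than counting error, or by no more than 1.5 times for counts of genes. With 20 CPM in place of 5 CPM, 1462 in place of 2337 genes were at least 2-fold lower in the mural than in the Pdgfra-H2BGFP line. No paired analysis was possible because each line is 1 sample of its own mice and the labels do not tie plates of the same number across lines. A plate without a read of Kcnj11 allows up to 0.02 to 0.05 CPM.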
